A study of Mus musculus with 8 samples.

Results

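Nuclear genes for the subunits of respiratory complexes II, III, IV and V were examined in soleus muscle of a mouse model of Down syndrome. The set was a list of 39 genes, and a gene was taken as measured where a probe set of the array was annotated to its symbol and to no other. That held for 38 of the 39, out of 19938 genes measured this way: 4 of complex II, 9 of complex III, 10 of the 11 listed for complex IV and 15 of complex V. Cox7c, a small subunit of complex IV, was found only in probe sets shared with another gene and was not analysed here. Where a gene had more than 1 such probe set, the brightest on average over the 8 arrays was used.

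The electron transport chain lies in the inner mitochondrial membrane. Complex II (succinate dehydrogenase) passes electrons from succinate to ubiquinone, complex III (cytochrome bc1) passes them on to cytochrome c, and complex IV (cytochrome c oxidase) passes them to oxygen. Complex V (ATP synthase) makes ATP from the proton gradient that complexes III and IV help to build, and a slow postural muscle such as the soleus depends on this route for most of its work.

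The series held 8 arrays, 1 from each of 4 male Ts65Dn mice and 4 male wild-type (WT) mice of the same colony, all 5 months old. The Ts65Dn mice have an additional small chromosome that joins the distal part of mouse chromosome 16 (MMU16) to a centromeric piece of chromosome 17, so that genes there are present in 3 copies. The strain is given as Ts65Dn for the first group and as B6EiC3SnF1/J, a mix of B6 and C3H background, for the WT group, and no other allele or agent is named. Muscles were taken from unstimulated animals under pentobarbital. Values are log2 RMA values, in which a difference of 1 is a doubling of signal, from Affymetrix Mouse Gene 1.0 ST arrays. All differences below are Ts65Dn minus WT, and levels of different genes are not compared, since each probe set has its own response.

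The arrays differed as a whole. Array medians over all genes ran from 4.57 to 4.65 in Ts65Dn and from 4.72 to 4.86 in WT, and the interquartile range from 2.70 to 2.81 in Ts65Dn and from 2.09 to 2.48 in WT. WT arrays 2 and 3 had the narrowest ranges, 2.23 and 2.09, and stood apart from the other 6. Results that they move are therefore also given without them. Some results are also given matched for level, which means that the median deviation of the 100 disomic genes nearest in mean level was subtracted in each array. Markers of slow fibres were all present: 7 of 7 were measured, with means over arrays from 10.05 to 12.33. Their mean level ranged from 11.65 to 11.78 in Ts65Dn arrays and from 11.57 to 11.72 in WT arrays, and 0 of 7 were called by limma, also at an unadjusted p below 0.05. The muscle was profiled in bulk, where fewer cells of a type and less RNA per cell cannot be told apart.

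Transcript levels of the respiratory subunits were close in the 2 genotypes. By limma, at a Benjamini-Hochberg adjusted p below 0.05 over the 19938 genes, 0 of 38 members were called, while 5.26% of all genes were, 2.32% as higher and 2.94% as lower in Ts65Dn. Of the 491 genes with a mean of 10 or more, 0.407% were called. At an unadjusted p below 0.05, 1 member passed, Atp5o, against 34.8% of all genes and 6.31% of those 491. The latter group is the closer background, since 37 of the 38 members had a mean of 10 or more and only Sdhd, at 8.40, lay below. Adjusted p-values of the members ran from 0.134 to 0.981.

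Fold changes of the members were small, and the side to which they leaned depended on the scaling and on single arrays. Their median log2 fold change was -0.03, with 26 negative and 12 positive, beside a median of -0.10 over all genes and 0.05 over genes with a mean of 10 or more. By complex the medians were -0.08 for complex II, -0.03 for complex III, -0.03 for complex IV and 0.01 for complex V. Of the 38 members, 36 changed by less than 0.2 in either direction, and the extremes were Atp5k at -0.17 and Atp5g2 at 0.28. Without WT arrays 2 and 3 the median was -0.09 and 35 of 38 were negative. Of the 491 genes with a mean of 10 or more, 295 were then negative, with a median of -0.03, against 170 with all arrays. Matched for level, the member median was -0.05 with 27 negative, beside 229 negative of the 491. Without WT array 4 the median was 0.0033 with 18 negative and 20 positive, and with each array centred on its own median it was 0.17 with all 38 positive. In the deposited values, 37 of the 38 limma 95% intervals ended below 0.58, the log2 of 3/2. The exception was Atp5g2, with an interval from -0.12 to 0.68. These intervals do not cover the dependence on the scaling. Of the 6 MMU16 segment genes with a mean of 10 or more, 5 also had intervals that ended below 0.58. These 6 include Atp5o and Atp5j. Whether a change of that size in RNA would show in full in these array values was not tested.

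**Figure D1:**
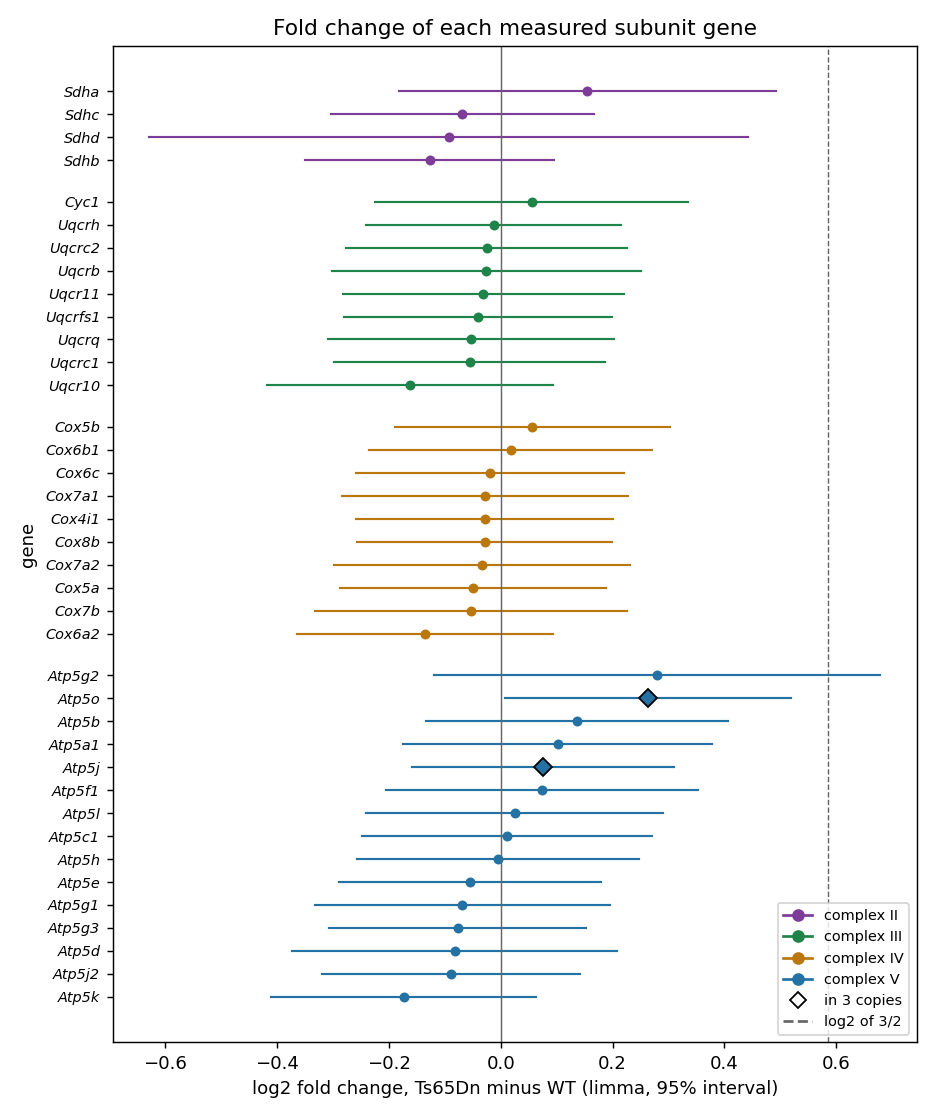
Log2 fold change (Ts65Dn minus WT, x axis) with the limma 95% interval for each of the 38 measured subunit genes, grouped by complex, with the 2 genes in 3 copies as diamonds and the log2 of 3/2 as a dashed line. The interval of Atp5o is the only one that lies wholly above 0, and that of Atp5g2 is the only one that crosses the dashed line.

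All 4 Ts65Dn arrays lay above all 4 WT arrays for 1 member, Atp5o, as for 6.81% of all genes and 6.72% of genes with a mean of 10 or more. All Ts65Dn arrays lay below all WT arrays for 4 members, Sdhb, Cox6a2, Atp5j2 and Atp5k, as for 15.9% of all genes and 1.83% of genes with a mean of 10 or more. None of these 4 passed limma at an unadjusted p below 0.05, and their log2 fold changes were -0.13, -0.14, -0.09 and -0.17.

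**Figure D2:**
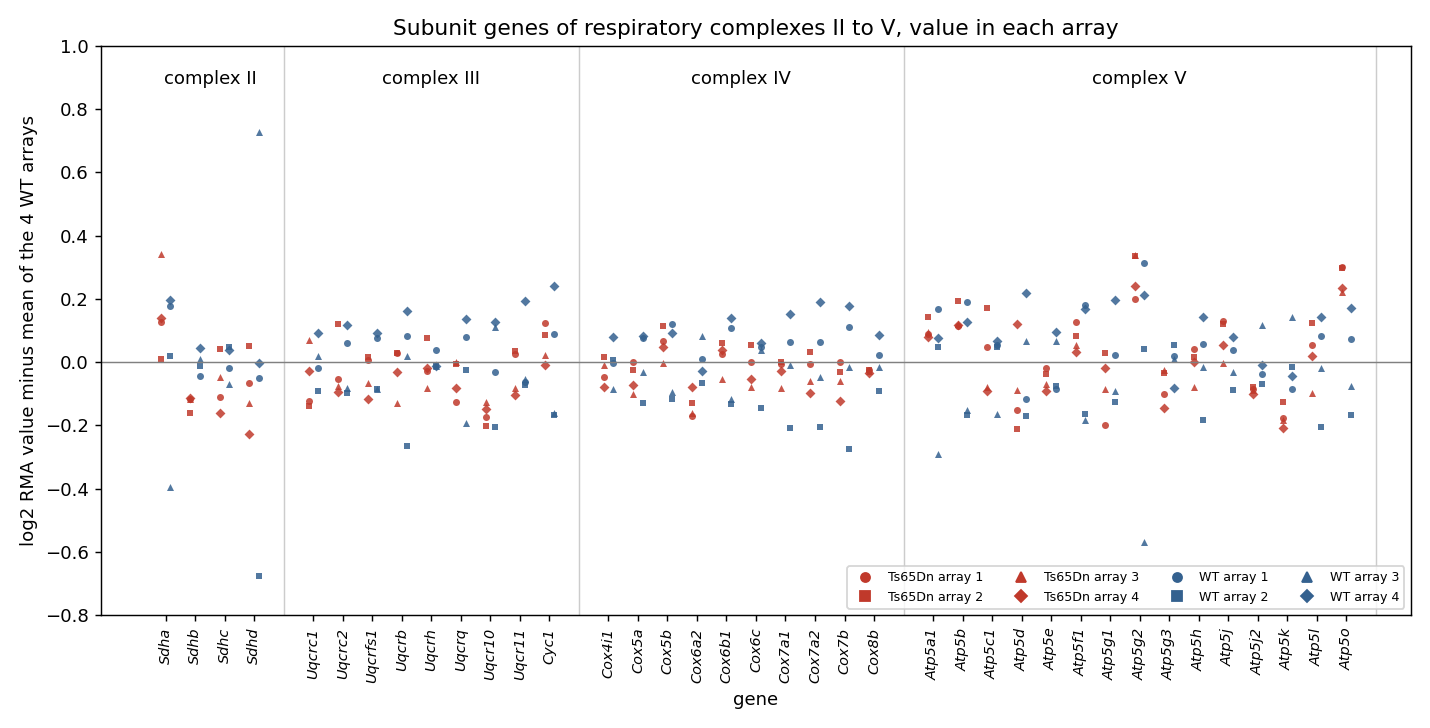
Deposited log2 value of each measured subunit gene in each of the 8 arrays, relative to the mean of the 4 WT arrays (y axis), with Ts65Dn in red, WT in blue and the symbol shape giving the array number. Most genes of both groups lie within 0.2 of the WT mean, while Sdha, Sdhd and Atp5g2 are spread by WT arrays 2 or 3.

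Atp5o and Atp5j are the ATP synthase genes that lie in the part of MMU16 present in 3 copies. Atp5o encodes the oligomycin sensitivity conferring protein, which joins the peripheral stalk to the catalytic head, and Atp5j encodes coupling factor 6, another protein of the peripheral stalk. The stretches before their starts are shown because Atp5j shares its own with a neighbour, Gabpa, which is compared with it further on, and Atp5o does not. Of the 38 measured members, 29 had an entry in the RefSeq promoter table (GRCm38.p6), which covers 250 bases before to 50 after each start. Capitals mark a YY1 motif, AAGATGGC, and the Atp5o stretch holds none of the 3 motifs searched.
Atp5j and Gabpa, shared stretch, chr16:84834977-84835123, minus strand: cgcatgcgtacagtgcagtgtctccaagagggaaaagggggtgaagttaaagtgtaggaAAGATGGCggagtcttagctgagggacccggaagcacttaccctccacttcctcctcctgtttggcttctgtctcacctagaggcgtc
Atp5o, chr16:91931631-91931880, minus strand: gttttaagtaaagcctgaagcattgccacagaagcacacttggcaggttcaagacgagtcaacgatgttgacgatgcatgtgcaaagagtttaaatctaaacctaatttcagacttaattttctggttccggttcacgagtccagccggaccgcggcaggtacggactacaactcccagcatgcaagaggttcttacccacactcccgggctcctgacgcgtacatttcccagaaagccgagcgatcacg
The 147 bases of the first stretch belong to the windows of both genes, which lie on opposite strands and point away from each other from these starts. The YY1 motif begins at position -88 relative to this start of Atp5j. The table also gives Atp5j another start, which lies beyond the start of Gabpa, so that a transcript from there runs across it. A match is a description of the letters and not evidence of binding.

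Atp5o was higher in every Ts65Dn array than in any WT array. Its log2 values were 11.45, 11.45, 11.37 and 11.39 in Ts65Dn arrays 1 to 4 and 11.23, 10.99, 11.08 and 11.32 in WT arrays 1 to 4. Ts65Dn arrays were close to each other, and WT array 2 was the lowest of the 8. This gave a log2 fold change of 0.26 (SE 0.12, 95% interval 0.01 to 0.52), which did not pass limma's adjusted threshold (adjusted p = 0.134, range over the alternatives 0.0624 to 0.526). The fold change was 0.24 matched for level and 0.14 without WT arrays 2 and 3.

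Atp5j, carried in the same number of copies, showed no such separation. Its log2 values were 11.52, 11.51, 11.39 and 11.44 in Ts65Dn and 11.43, 11.30, 11.36 and 11.47 in WT arrays 1 to 4. The groups overlapped, with Ts65Dn array 3 below WT arrays 1 and 4. On the log2 scale the difference was 0.08 (SE 0.11, 95% interval -0.16 to 0.31; limma adjusted p = 0.623). Both intervals ended below 0.58. Whether the 2 genes differed from each other in fold change was not tested.

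Each gene was also set against its partner subunits within the same array, which removes a shift shared by genes of like level. The reference was the median of the 13 disomic ATP synthase subunits. Atp5o lay below it by -0.22, -0.27, -0.23 and -0.24 in Ts65Dn arrays 1 to 4 and by -0.53, -0.51, -0.48 and -0.46 in WT arrays 1 to 4. Ts65Dn arrays averaged -0.24 ± 0.02 (SD, n = 4) and WT arrays -0.50 ± 0.03 (SD, n = 4), and the difference of 0.26 was several times the spread within either group. It was 0.26 without WT arrays 2 and 3 and lay between 0.245 and 0.269 when any 1 array was left out. Such a separation upward was seen for 7.84% of all genes set against the same reference. Against the median of complexes II to IV the difference was 0.36.

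Atp5j overlapped between genotypes on this scale as well. Relative to the disomic subunits it read -0.15, -0.21, -0.21 and -0.19 in Ts65Dn and -0.33, -0.19, -0.20 and -0.31 in WT arrays 1 to 4. WT arrays 2 and 3 lay among the Ts65Dn arrays, and WT arrays 1 and 4 lay below all of them. The difference was 0.07, and 0.13 without WT arrays 2 and 3.

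**Figure D3:**
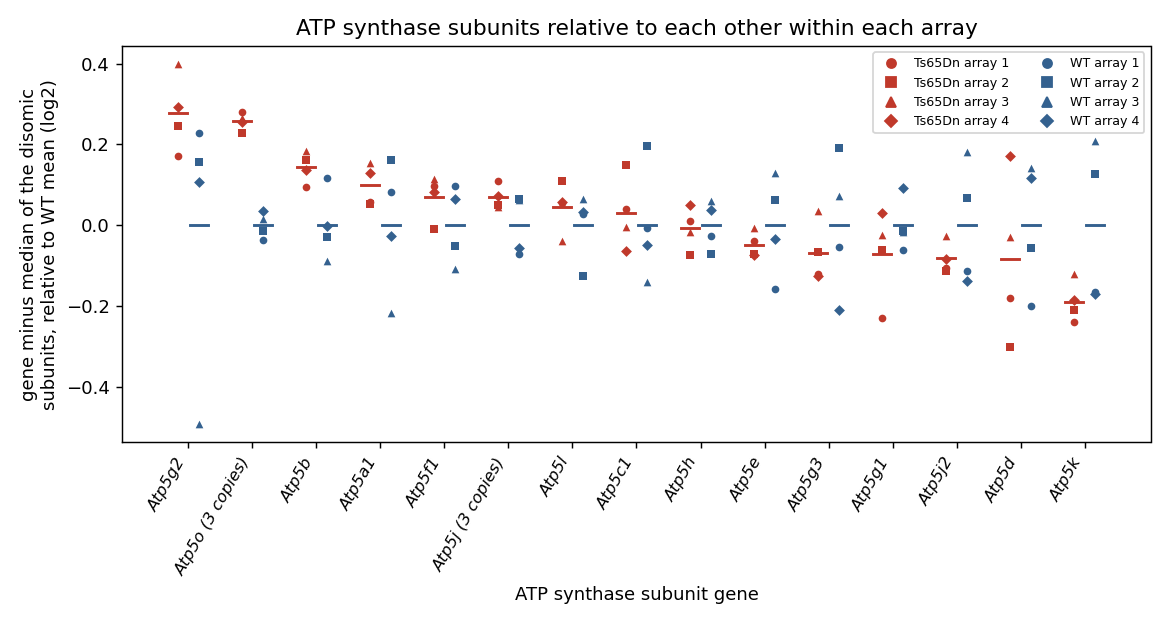
Log2 value of each of the 15 ATP synthase subunit genes minus the median of the other disomic subunits in the same array, relative to the WT mean of that difference (y axis), with a point per array and a bar at each group mean. Atp5o, at a difference of 0.26, is the only gene whose red and blue points do not overlap, and Atp5j lies at 0.07.

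Among the 15 subunits Atp5o ranked second by this within-array difference. Atp5g2, one of the genes for the membrane ring of subunit c, ranked first at 0.28. Its log2 values were 10.72, 10.86, 10.86 and 10.76 in Ts65Dn and 10.83, 10.56, 9.95 and 10.73 in WT arrays 1 to 4. WT array 3 was far below the rest, and WT arrays 1 and 4 lay within the Ts65Dn range. The log2 fold change of 0.28 (SE 0.18, 95% interval -0.12 to 0.68; limma adjusted p = 0.279) was 0.02 without WT arrays 2 and 3.

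The genes that lie beside the 2 ATP synthase genes are listed as in 3 copies as well, apart from Mir155. That gene lies just outside the segment list used here, which does not show that it is present in 2 copies, and its copy number was not tested. One of the Atp5j starts lies back to back with that of Gabpa, which encodes the DNA-binding subunit of an ETS factor known to act on nuclear respiratory genes. Gabpa read 9.03, 9.24, 9.16 and 9.20 in Ts65Dn and 8.68, 8.36, 7.38 and 8.89 in WT arrays 1 to 4. All Ts65Dn arrays were above all WT arrays, and WT array 3 was far the lowest. The log2 fold change was 0.83 (95% interval 0.23 to 1.43; limma adjusted p = 0.0732), and 0.37 without WT arrays 2 and 3. Gabpa was called under 1 of 20 alternative settings, without WT array 4. Within each array, Gabpa minus Atp5j was -2.31 ± 0.12 (SD, n = 4) for Ts65Dn against -3.06 ± 0.63 (SD, n = 4) for WT, without overlap, a difference of 0.75. It was 0.45 without WT array 3, 0.35 without WT arrays 2 and 3, and 0.51 matched for level, where the groups overlapped.

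Other neighbours covered a wide range. Next to Atp5j, App (amyloid precursor protein) was called higher by limma at 1.31 on the log2 scale (adjusted p = 0.0456), while Jam2 read 0.70, Mrpl39 0.24, Mir155 -0.33 and Gm10791 -0.17, none of them called. Next to Atp5o, Itsn1 (intersectin, an endocytic scaffold) at 0.88 and Cryzl1 (a quinone oxidoreductase-like protein) at 0.67 were called higher, with limma adjusted p-values of 0.0456 and 0.0458, whereas Slc5a3 at 0.23, Mrps6 at 0.10, Kcne2 at -0.50 and Gm10785 at -0.76 were not. Matched for level, Jam2 read 0.35, Mrpl39 0.14, Mir155 -0.06, Gm10791 0.08, Slc5a3 0.50, Mrps6 -0.19, Kcne2 -0.26 and Gm10785 -1.05. On that scale App read 1.03, Itsn1 0.62 and Cryzl1 0.45. App and Itsn1 were called under 9 of 20 alternative settings and Cryzl1 under 6 of 20. Within each array, Itsn1 minus Atp5o differed by 0.62 and Cryzl1 minus Atp5o by 0.41 between genotypes, without overlap in either case. Matched for level the differences were 0.38, without overlap, and 0.21, with overlap.

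Over the 129 measured genes of the MMU16 segment, the log2 fold change of Atp5o ranked 45 and that of Atp5j 54 from the highest, around a median of -0.03. Matched for level, the median of the 129 was 0.08, with 84 positive. Of the 129, 21 were called higher and 3 lower by limma, beside 2.32% and 2.94% of all genes. The 61 segment genes above the median level of all genes, where both ATP synthase genes lie, had a median of 0.53 with 53 positive, and 0.35 matched for level, and all 21 higher calls were among them. Only 6 of the 129 had a mean of 10 or more, as the subunit genes do. Their fold changes were 0.38 for Sh3bgr, 0.26 for Atp5o, 0.25 for Smim11, 0.24 for Mrpl39, 0.08 for Atp5j and 0.07 for Sod1 (superoxide dismutase). None was called by limma. For 3 of them, Sh3bgr, Atp5o and Smim11, the unadjusted p was below 0.05 and the groups did not overlap. Among all genes with a mean of 10 or more, 6.31% had such a p, and 6.72% lay higher in all Ts65Dn arrays.

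**Figure D4:**
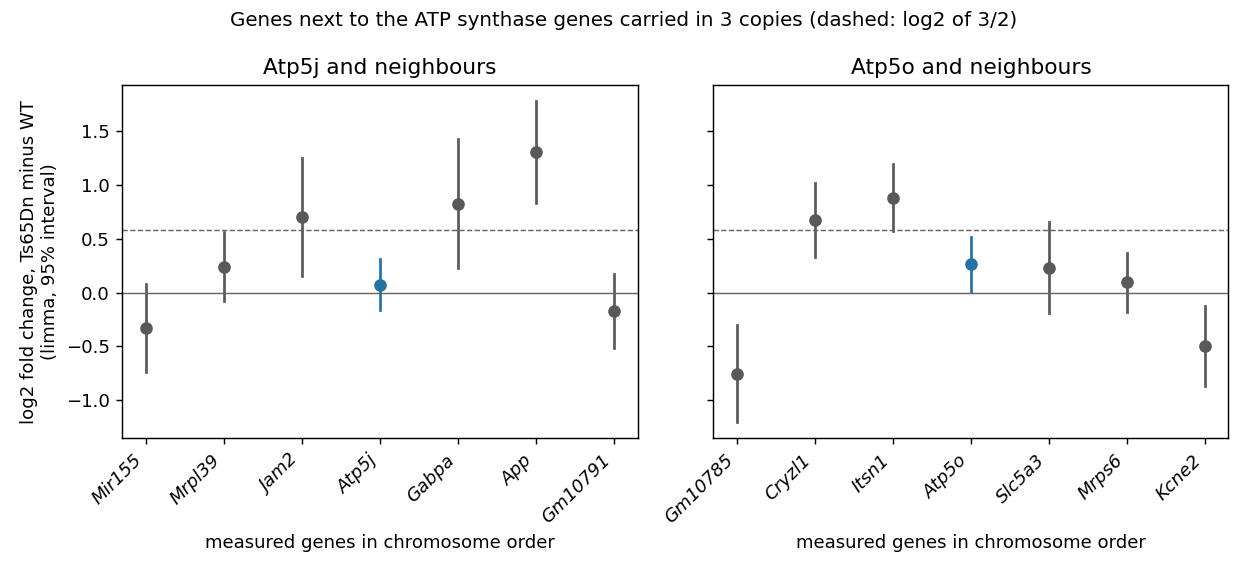
Log2 fold change (Ts65Dn minus WT, y axis) with the limma 95% interval for Atp5j and Atp5o (blue) and the 3 measured genes on either side of each (grey), in chromosome order, with a dashed line at the log2 of 3/2. Atp5j at 0.08 stands beside Gabpa at 0.83 and App at 1.31, and Atp5o at 0.26 beside Itsn1 at 0.88.

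The disomic ATP synthase subunits had a median log2 fold change of -0.0046 in the deposited values and of -0.01 matched for level, with 6 positive and 7 negative. The catalytic head was represented by Atp5a1 (alpha) at 0.10, Atp5b (beta) at 0.14, Atp5c1 (gamma) at 0.01, Atp5d (delta) at -0.08 and Atp5e (epsilon) at -0.05. Without WT arrays 2 and 3, Atp5a1 and Atp5b both read -0.02. The peripheral stalk genes Atp5f1 (subunit b) and Atp5h (subunit d), disomic partners of Atp5o and Atp5j, read 0.07 and -0.0046. Their probe sets did not agree closely, running from -0.08 to 0.07 for Atp5f1 and from -0.21 to -0.0046 for Atp5h. Without WT arrays 2 and 3, 12 of the 13 were negative, beside 295 of the 491 genes with a mean of 10 or more.

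The largest downward difference among the 38 was that of Atp5k, which encodes the membrane subunit e used where ATP synthase forms dimers. Its values were 11.67, 11.72, 11.66 and 11.64 in Ts65Dn and 11.76, 11.83, 11.99 and 11.80 in WT arrays 1 to 4. Every Ts65Dn array was below every WT array, by a margin smaller than the spread among the WT arrays. Its fold change was -0.17 on the log2 scale (SE 0.11, 95% interval -0.41 to 0.06; limma adjusted p = 0.26), and -0.11 without WT arrays 2 and 3. Relative to the other subunits within each array, Atp5k overlapped between the groups.

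Atp5j2 (subunit f), another small membrane subunit, read 12.02, 12.03, 12.02 and 12.01 in Ts65Dn and 12.07, 12.04, 12.23 and 12.10 in WT arrays 1 to 4, again with no overlap. Its log2 fold change was -0.09 (limma adjusted p = 0.549). Atp5l (subunit g) read 0.03 by the probe set used, and its 6 probe sets ran from 0.03 to 0.08.

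Subunit c, whose ring turns with the passing protons, is encoded by 3 genes for the same mature protein. Atp5g1 read 11.03, 11.25, 11.14 and 11.21 in Ts65Dn and 11.25, 11.10, 11.13 and 11.42 in WT arrays 1 to 4. Atp5g3 read 11.76, 11.83, 11.84 and 11.72 in Ts65Dn and 11.88, 11.92, 11.88 and 11.79 in WT arrays 1 to 4. Both overlapped between the groups, with log2 fold changes of -0.07 (SE 0.12, 95% interval -0.33 to 0.20; limma adjusted p = 0.695) and -0.08 (SE 0.10, 95% interval -0.31 to 0.15; limma adjusted p = 0.606). Atp5g1 minus Atp5g3 within each array changed by 0.01. Atp5g2 minus Atp5g3 changed by 0.36 without overlap, and by 0.06 without WT arrays 2 and 3. Without WT array 3 alone it changed by 0.16, and matched for level by 0.29 with overlap.

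Succinate dehydrogenase has 4 subunits. Sdhb, the iron-sulfur protein that carries electrons from the flavin site to the membrane, read 11.33, 11.29, 11.33 and 11.33 in Ts65Dn and 11.40, 11.43, 11.46 and 11.49 in WT arrays 1 to 4. The groups did not overlap, and both were tight, at 11.32 ± 0.02 (SD, n = 4) and 11.45 ± 0.04 (SD, n = 4). The log2 fold change of -0.13 (SE 0.10, 95% interval -0.35 to 0.10; limma adjusted p = 0.374) was -0.14 matched for level and -0.13 without WT arrays 2 and 3. The standard error exceeds the spread of these 8 values because limma draws each gene's variance toward that of all genes.

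Sdha, the flavoprotein that oxidises succinate, had a positive fold change that rested on 1 array. It read 10.64, 10.53, 10.86 and 10.66 in Ts65Dn and 10.70, 10.54, 10.12 and 10.72 in WT arrays 1 to 4. WT array 3 was far the lowest, and the other 3 WT arrays lay within the Ts65Dn range. This gave 0.15 on the log2 scale (SE 0.15, 95% interval -0.18 to 0.49; limma adjusted p = 0.472), and -0.03 without WT arrays 2 and 3.

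Sdhc and Sdhd encode the membrane anchor. Sdhc had a log2 fold change of -0.07. Sdhd, the dimmest member, read between 8.22 and 8.50 in Ts65Dn, whereas WT array 2 read 7.77 and WT array 3 read 9.18, so that its log2 fold change of -0.09 had a wide 95% interval, from -0.63 to 0.44.

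Complex III transcripts did not separate by genotype for any of the 9 genes. Cyc1, which encodes cytochrome c1, had the only positive log2 fold change, 0.06, and it was -0.11 without WT arrays 2 and 3. Uqcrfs1, the Rieske iron-sulfur protein, and Uqcrc2, a core protein, read -0.04 and -0.03. Uqcrb, Uqcrh, Uqcrq and Uqcr11, small supernumerary subunits, read -0.03, -0.01, -0.05 and -0.03.

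The lowest p of the complex was that of Uqcr10, a small subunit near the cytochrome c1 side. It read 11.20, 11.17, 11.25 and 11.23 in Ts65Dn and 11.34, 11.17, 11.49 and 11.50 in WT arrays 1 to 4. WT array 2 lay at the Ts65Dn level and the other 3 WT arrays lay above it. Its log2 fold change was -0.16 (SE 0.12, 95% interval -0.42 to 0.09; limma adjusted p = 0.325). Uqcrc1, the other core protein, read 10.18, 10.17, 10.37 and 10.28 in Ts65Dn and 10.29, 10.21, 10.32 and 10.40 in WT arrays 1 to 4. The groups were interleaved, with a log2 fold change of -0.06 (SE 0.11, 95% interval -0.30 to 0.19; limma adjusted p = 0.733).

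Cytochrome c oxidase has nuclear subunits that come in muscle and widely expressed forms. Cox6a2, the heart and muscle form of subunit VIa, was the only one of the 10 whose groups did not overlap. It read 11.85, 11.89, 11.86 and 11.94 in Ts65Dn and 12.03, 11.95, 12.10 and 11.99 in WT arrays 1 to 4. Ts65Dn array 4 came close to WT array 2. The resulting log2 fold change was -0.14 (SE 0.10, 95% interval -0.36 to 0.09; limma adjusted p = 0.357).

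Cox5b, a subunit on the matrix side, had the second lowest p of the complex. It read 12.04, 12.09, 11.97 and 12.02 in Ts65Dn and 12.10, 11.86, 11.88 and 12.07 in WT arrays 1 to 4. WT arrays 2 and 3 were low and WT array 1 was the highest of the 8, which left a log2 fold change of 0.06 (SE 0.11, 95% interval -0.19 to 0.30; limma adjusted p = 0.732), and -0.05 without WT arrays 2 and 3. Its partner on the matrix side, Cox5a, read -0.05. Cox6b1, Cox6c and Cox7b, which sit around the catalytic core, read 0.02, -0.02 and -0.05.

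The balance between muscle and other isoforms was compared within each array, where a shift cancels only as far as both isoforms have a like level. Cox7a1, the muscle form, read 11.92, 11.93, 11.85 and 11.90 in Ts65Dn and 12.00, 11.72, 11.92 and 12.08 in WT arrays 1 to 4. Cox7a2, its widely expressed counterpart, read 11.31, 11.35, 11.26 and 11.22 in Ts65Dn and 11.38, 11.11, 11.27 and 11.51 in WT arrays 1 to 4. In both genes WT array 2 was the lowest and WT array 4 the highest, and the log2 fold changes were -0.03 (SE 0.12, 95% interval -0.28 to 0.23; limma adjusted p = 0.873) and -0.03 (SE 0.12, 95% interval -0.30 to 0.23; limma adjusted p = 0.858). Cox7a1 minus Cox7a2 changed by 0.0042 between genotypes, with means of 0.62 ± 0.05 (SD, n = 4) for Ts65Dn and 0.62 ± 0.03 (SD, n = 4) for WT.

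Cox8b, the muscle form of subunit VIII, read 12.37, 12.37, 12.37 and 12.36 in Ts65Dn and 12.42, 12.31, 12.38 and 12.48 in WT arrays 1 to 4. The Ts65Dn arrays were nearly identical and lay inside the WT range. Their difference from WT was -0.03 (SE 0.10, 95% interval -0.26 to 0.20; limma adjusted p = 0.856). Cox8b minus Cox8a changed by 0.06 and Cox6a2 minus Cox6a1 by -0.05, both with overlapping groups. Matched for level these were 0.34 and 0.07, and without WT arrays 2 and 3 -0.06 and 0.07, with the groups still overlapping after level matching.

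Cox4i1, the form of subunit IV found in most tissues, read 11.92, 11.98, 11.96 and 11.89 in Ts65Dn and 11.97, 11.98, 11.88 and 12.05 in WT arrays 1 to 4. These overlapped, with a log2 fold change of -0.03 (SE 0.10, 95% interval -0.26 to 0.20; limma adjusted p = 0.857). Cox4i2, a form best known from lung, read between 4.39 and 4.74 in Ts65Dn and between 4.84 and 4.98 in WT. Cox4i1 minus Cox4i2 was larger in Ts65Dn by 0.33 without overlap in the deposited values. Matched for level it was larger by 0.03, with overlap. For Cox4i2 itself the log2 fold change was -0.35 in the limma fit (adjusted p = 0.0842) and -0.07 matched for level.

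WT arrays were more variable than Ts65Dn arrays for most subunits. The SD was larger in WT for 34 of 38 members (89.5%), beside 67.3% of all genes and 83.3% of genes with a mean of 10 or more. Its median was 0.06 in Ts65Dn and 0.13 in WT. WT array 2 held the lowest value of 18 of the 38 members, beside 9.93% of all genes. WT array 4 held the highest value of 21 members, beside 8.12% of all genes. The median deviation of the 38 members from their means was -0.10 in WT array 2, -0.03 in WT array 3, 0.06 in WT array 1 and 0.11 in WT array 4, and lay between -0.04 and 0.04 in the Ts65Dn arrays. The members thus moved together from array to array within WT by more than their median differed between genotypes.

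**Figure D5:**
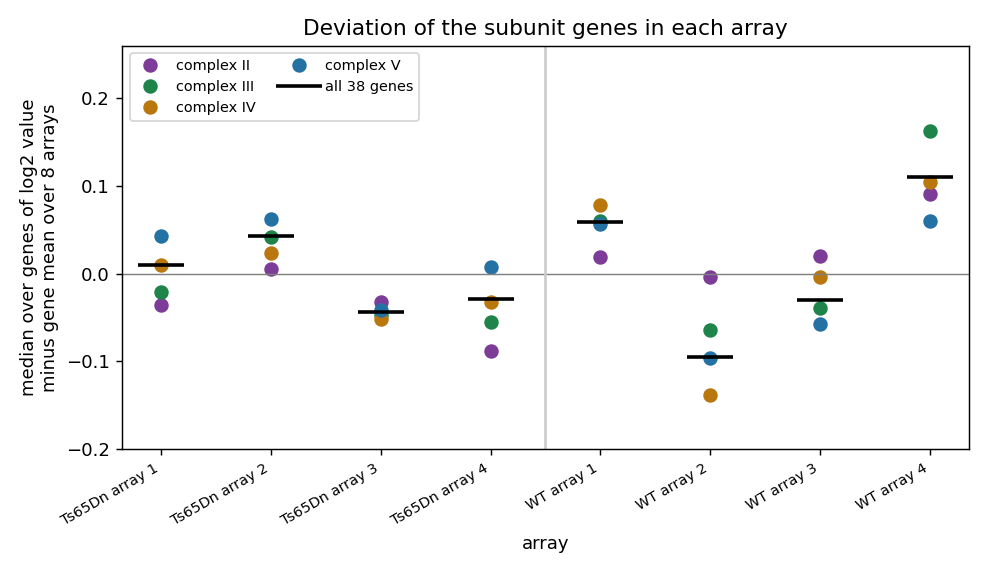
Median deviation of the subunit genes of each complex from their means over the 8 arrays (y axis, log2), for each array, with a black bar for all 38 genes. WT array 2 is lowest at -0.10 and WT array 4 highest at 0.11, and all 4 Ts65Dn arrays lie between them.

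Other genes of the same pathway were taken from a list of 55, of which 45 were measured. Of these 45, 1 was called, as higher, beside 2.32% of all genes. Of the 45, 26 had a positive and 19 a negative log2 fold change, beside 7825 and 12113 of all genes. Matched for level, more of the 45 were negative than positive. The 6 subunit genes of the mitochondrial genome were not analysed here. The other 13 nuclear genes gave 0 calls by limma, with 1 at an unadjusted p below 0.05, Cox4i2. Atp5s, also known as coupling factor B, had the second lowest p of that list. Its log2 fold change was 0.28 (limma adjusted p = 0.221), and -0.11 matched for level. Cycs, the somatic cytochrome c, and Atpif1, the inhibitor of ATP synthase, had log2 fold changes of 0.09 and -0.000325, with adjusted p-values of 0.629 and 0.999 by limma.

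Assembly factors build the complexes and are not part of them. Of 36 listed, 32 were measured and 1 was called, as higher, beside 2.32% of all genes. Of the 32, 22 were positive, beside 7825 of all 19938 genes. Matched for level, more of the 32 were negative than positive. Lyrm7, a chaperone that holds the Rieske protein before its insertion into complex III, read 5.84, 5.81, 5.59 and 5.36 in Ts65Dn and 4.52, 4.87, 5.10 and 4.97 in WT arrays 1 to 4. Every Ts65Dn array was above every WT array. Lyrm7 was higher by 0.79 on the log2 scale (SE 0.16, 95% interval 0.43 to 1.14; limma adjusted p = 0.0456). It lay between 0.67 and 0.999 over the alternatives and was called under 9 of 20. Uqcrfs1, its client, read -0.04.

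Atpaf2, which binds the alpha subunit before the head of ATP synthase is assembled, read 6.92, 7.07, 6.99 and 7.13 in Ts65Dn and 6.71, 6.45, 5.78 and 6.54 in WT arrays 1 to 4. The groups did not overlap, and WT array 3 was the lowest. The log2 fold change of 0.66 did not pass the threshold (limma adjusted p = 0.0569) and was 0.38 matched for level. It was called under 3 of 20 alternative settings, with adjusted p-values from 0.036 to 0.475 by limma over all of them. Atpaf1, which binds the beta subunit, read 0.26, and Tmem70 read -0.06.

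Promoters of the members were searched for motifs of 3 factors known to act on nuclear respiratory genes. The letters were GCGCATGC for NRF1, CCGGAAGT for GABPA and AAGATGGC for YY1, on both strands, over the whole of each RefSeq window. NRF1 letters were found for 6 of the 29 genes with an entry (20.7%), namely Sdhb, Uqcrc1, Uqcr11, Atp5g2, Atp5k and Atp5l, beside 3.05% of 27025 genes in the table. GABPA letters were found for Uqcrh, Uqcr11 and Atp5h, 10.3% beside 4.31%, and YY1 letters for Atp5f1, Atp5j and Atp5j2, 10.3% beside 3.19%. Any of the 3 occurred for 11 of 29 (37.9%), beside 9.91% of all genes. Sdhb and Atp5k, whose Ts65Dn arrays all lay below the WT arrays, are shown here with the NRF1 letters in capitals.
Sdhb, chr4:140961021-140961270, plus strand: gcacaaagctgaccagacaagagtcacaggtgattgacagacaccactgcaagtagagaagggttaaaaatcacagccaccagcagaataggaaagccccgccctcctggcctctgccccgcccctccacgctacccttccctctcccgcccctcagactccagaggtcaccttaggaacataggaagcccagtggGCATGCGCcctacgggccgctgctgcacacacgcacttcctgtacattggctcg
Atp5k, chr5:108434400-108434649, minus strand: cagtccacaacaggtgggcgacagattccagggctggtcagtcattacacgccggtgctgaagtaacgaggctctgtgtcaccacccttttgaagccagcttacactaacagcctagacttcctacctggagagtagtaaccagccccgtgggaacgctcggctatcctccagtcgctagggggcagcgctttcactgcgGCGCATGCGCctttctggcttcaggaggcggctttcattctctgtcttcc
In Atp5k the capitals hold the motif on both strands in overlapping letters. Of the 6 genes with NRF1 letters, Sdhb and Atp5k had log2 fold changes of -0.13 and -0.17, Uqcrc1 and Uqcr11 of -0.06 and -0.03, and Atp5l and Atp5g2 of 0.03 and 0.28.

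Markers of other cell types in the muscle were read in the same limma fit. Over all genes 5.26% were called, 2.32% as higher, and 34.8% had an unadjusted p below 0.05. Of 6 endothelial markers 2 were called higher, Kdr at 0.99 and Emcn at 1.18. Tek read 0.74, Pecam1 0.58 and Cdh5 0.54, while Tie1 read -0.04. The mean level of the 6 ran from 5.89 to 6.18 in Ts65Dn arrays and from 5.11 to 5.61 in WT arrays. Of 6 macrophage markers 1 was called higher, Cd68, at 2.39. Lyz2 read 0.42, Mrc1 0.31, Cd163 0.29, Csf1r 0.09 and Adgre1 -0.05. The mean level of the 6, Cd68 included, ran from 5.26 to 5.87 in Ts65Dn arrays and from 4.77 to 5.05 in WT arrays. Of 6 fibroblast markers 1 was called higher, Pdgfra, with mean levels of 6.68 to 6.91 against 6.52 to 6.65. None of these 3 mean levels overlapped between the genotypes. Among the macrophage markers only Cd68 did not overlap by itself, at 6.33 to 9.31 in Ts65Dn and 4.34 to 5.88 in WT arrays. The macrophage mean level therefore does not show a separation of that list without Cd68. The fibroblast markers were mixed, with Lum at 1.02, Pdgfra at 0.62 and Dcn at 0.35 but Col3a1 at -0.06, Col1a2 at -0.24 and Col1a1 at -0.35. Of the fast fibre (7), adipocyte (5), brown adipocyte (3), Schwann cell (4) and red blood cell (2) markers measured, 0 were called by limma. Of these, 2 had an unadjusted p below 0.05 (Plin1 of adipocytes and Pmp22 of Schwann cells), and the mean level of each list overlapped between the groups. The fast fibre gene Myh4 read 10.52 in Ts65Dn array 4 and between 5.89 and 6.76 in the other arrays, and the reason was not tested. The part of these cell types in the differences of Atp5o, Sdhb, Cox6a2, Atp5j2 and Atp5k was not tested.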

How the data were processed

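Total RNA from the soleus of 8 mice was amplified, labelled with biotin and hybridised to 1 array per mouse, per the labels' protocols. The authors deposited gene-level log2 values, made with Affymetrix Expression Console 1.1 and RMA per the submitters' processing notes, which corrects background, normalizes between arrays and summarises probe sets. The log2 scale was read from the range of the values. The authors' genome build is not given in the sources used here, and scanner files were not used here.

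Of 35556 probe sets, 21789 had 1 symbol, 1621 several and 12146 none, and symbols were updated by Entrez identifier for 21698. Per gene the probe set with the highest mean was kept, which left 19938 genes. Atp5f1 was matched through a synonym. Groups were compared with lmFit and eBayes (limma 3.58.1, R 4.3.3), two-sided, adjusted over all genes, without covariates, and the script was tested on simulated data. Python 3.11.15, pandas 2.3.3 and matplotlib 3.10.9 made the tables and plots. Promoters came from RefSeq tables of GRCm38.p6.

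Described in full were Atp5o, Atp5j, both isoforms of each pair that are members, and, per complex, the 2 members with the lowest p and the one with the largest fold change. Beyond the members, the called genes and the 2 with the lowest p of each list were to be named, and other genes were named after their values were seen. The members and lists were chosen with earlier results of these data known. Alternatives changed the normalization, centring, filter, probe set, variance model, threshold or arrays. The labels call the samples biological replicates and name no batch, and p-values measure the spread between these arrays, whose number limits the precision.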

Additional observations from a re-analysis of the deposited data

Results flagged for a closer look

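For the 38 measured subunit genes, the isoform differences and the within-array differences of Atp5o and Atp5j, 1 array lay far from the other 3 in 6 of 92 groups examined, by Dixon's criterion at its 95% critical value. Chance alone marks about 1 in 20 groups. Sdhb read 11.29 in Ts65Dn array 2, below the other 3 at 11.33 each. Atp5b read 12.01 in Ts65Dn array 2, above the other 3 at 11.93. Uqcrh read 12.00 in WT array 1, where the others read 11.95. Uqcr11 read 11.23 in WT array 4, where the others ran from 10.97 to 10.98. Cox6c read 12.32 in WT array 2, where the others ran from 12.51 to 12.53. Atp5c1 read 11.56 in WT array 3, where the others ran from 11.77 to 11.79. None of these 6 genes passed limma at an unadjusted p below 0.05.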

How the results depend on the processing

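No member was called under any alternative run, and of 320 alternative values of the 16 members described in full, 302 kept their direction, 18 reversed and 0 passed the threshold. With each array centred on its median, the member median was 0.17 and all 38 members were positive, which reversed Sdhb (0.0758), Uqcr10 (0.0402), Uqcrc1 (0.15), Cox6a2 (0.0674), Atp5k (0.0293), Cox4i1 (0.17), Cox7a1 (0.17), Cox7a2 (0.17), Cox8b (0.17), Atp5g1 (0.13) and Atp5g3 (0.13). Centring moved the median of all genes from -0.10 to 0.10 and the split of called genes from 462 higher and 587 lower to 951 and 57, and 4 members then had an unadjusted p below 0.05. Cyclic loess gave a member median of -0.10 and turned Atp5j to -0.000489. Without WT arrays 2 and 3, Sdha read -0.0333 and Cox5b -0.0498, and with level matching as well, an alternative added after the data were seen, -0.0175 and -0.0120. Atp5s read -0.11 with level matching and -0.15 with both. Without WT replicate 4, Cox7a1 read 0.0216 and Cox7a2 0.0305. The cause of these reversals was not tested. The alternatives for differences between a pair of genes were also added after the data were seen. The within-array difference of Atp5o was 0.36, and that of Atp5j 0.17, against complexes II to IV, and that of Atp5j was 0.13 without WT arrays 2 and 3 and 0.15 with level matching as well.

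The number of all genes called, 1049, was 1 after another quantile normalization, 135 after cyclic loess, 89 with level matching, 436 among genes above the median level, 236 with array weights, 0 with adjustment over all probe sets, 4961 at an adjusted p below 0.1, 1 without WT arrays 2 and 3, and 0 to 2865 when 1 array was left out (0 without Ts65Dn array 1, 3 or 4 or WT array 2, 1 without Ts65Dn array 2 or WT array 3, 2865 without WT array 1 and 2422 without WT array 4). With the replicate number as a block 0 genes and 0 members were called. Deviations of same-numbered arrays correlated at 0.03, 0.01, 0.09 and 0.07, so that the numbers were not read as pairs. The number of arrays and the spread within WT limit the precision: the median limma 95% interval of a member reached 0.25 to either side.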
